A study of Mus musculus with 28 samples.

Results

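The guanylate-binding proteins are a family of large GTPases, and the transcripts of 10 of them, *Gbp2* to *Gbp11*, were followed in mouse liver. Members were chosen by gene symbol, and the family was picked because *Gbp5* and *Gbp3* differed strongly between SIRT6-transgenic and wild-type mice. The 10 members are 10 of 49585 features in the table of read counts, and all 10 were among the 21583 genes kept after a filter on low counts. The choice is taken to have rested on the male mice, which show that strong difference. Values that involve male libraries are therefore given as a description of the members, with no test, and only the comparison between female groups is a test of them.

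The data were RNA-seq libraries from frozen livers of C57BL/6JOlaHsd mice aged 5 to 7 months that had been fasted for a few hours. There were 4 groups of 7 mice, male and female, each WT or SIRT6-tg. SIRT6-tg mice overexpress the deacylase SIRT6 from a transgene, and every transgenic animal came from the same transgenic line, so effects of that line and of SIRT6 itself cannot be told apart. The promoter of the transgene is not given in the sources used here, the labels name no batch, and the WT mice were littermates of the SIRT6-tg mice. The question put to these groups was how SIRT6 overexpression changes liver transcripts in each sex.

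Guanylate-binding proteins belong to the dynamin superfamily of GTPases that assemble on membranes. Cells make them in response to interferons, above all to interferon-gamma, which acts through the kinases JAK1 and JAK2 and, further downstream, the transcription factor IRF1. The proteins coat the vacuoles of intracellular parasites and bacteria, help to break them open, and promote the activation of inflammasomes. In the liver they can be made by macrophages, endothelial cells and lymphocytes as well as by hepatocytes.

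The members lie in 2 clusters of the mouse genome (GRCm38, the build of the counts, also called mm10). *Gbp5*, *Gbp7*, *Gbp3* and *Gbp2* lie in that order on the plus strand of chromosome 3, from 142493978 to 142638008, a stretch of 144 kb with 4 members. The other members, *Gbp8*, *Gbp9*, *Gbp4*, *Gbp10*, *Gbp6* and *Gbp11*, lie on the minus strand of chromosome 5 between 105014150 and 105346472, a stretch of 332 kb with 6 members. The annotation calls 9 of the members protein coding and *Gbp11* a polymorphic pseudogene, a gene that is intact in some strains and broken in others.

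Promoter sequences show the letters that interferon-activated factors are known to read. A RefSeq window reaching from 250 bases before to 50 bases after the transcription start (GRCm38.p6, plus strand) was at hand for 4 of the 10 members, all on chromosome 3. *Gbp4*, *Gbp6*, *Gbp8*, *Gbp9*, *Gbp10* and *Gbp11* had none. Each window was searched on both strands for GAS, the gamma-activated site motif TTCNNNGAA, and for ISRE, the motif of interferon regulatory factors, searched as GAAA, then 2 bases of any kind, then GAAA. Matches are in capitals. The windows are shown because they belong to the members whose levels are described next, and a match describes letters and not a bound site.
Gbp5 at chr3:142496684-142496983: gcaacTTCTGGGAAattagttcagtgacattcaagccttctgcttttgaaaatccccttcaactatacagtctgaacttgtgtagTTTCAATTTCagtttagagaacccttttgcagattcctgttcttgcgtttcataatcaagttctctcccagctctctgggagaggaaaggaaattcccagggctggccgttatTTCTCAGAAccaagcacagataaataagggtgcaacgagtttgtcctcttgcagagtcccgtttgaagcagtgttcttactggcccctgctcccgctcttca
Gbp7 at chr3:142530086-142530385: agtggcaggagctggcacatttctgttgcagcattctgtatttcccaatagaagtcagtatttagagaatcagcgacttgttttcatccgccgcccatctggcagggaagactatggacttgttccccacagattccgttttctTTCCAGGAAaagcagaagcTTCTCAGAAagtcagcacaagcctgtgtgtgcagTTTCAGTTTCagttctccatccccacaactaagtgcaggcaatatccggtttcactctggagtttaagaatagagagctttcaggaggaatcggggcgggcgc
Gbp3 at chr3:142559794-142560093: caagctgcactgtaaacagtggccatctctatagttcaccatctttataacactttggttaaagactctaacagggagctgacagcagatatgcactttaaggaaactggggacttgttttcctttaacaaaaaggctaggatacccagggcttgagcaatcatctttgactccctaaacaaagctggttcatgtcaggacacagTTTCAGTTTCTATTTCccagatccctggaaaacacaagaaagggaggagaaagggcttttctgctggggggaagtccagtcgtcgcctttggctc
Gbp2 at chr3:142620413-142620712: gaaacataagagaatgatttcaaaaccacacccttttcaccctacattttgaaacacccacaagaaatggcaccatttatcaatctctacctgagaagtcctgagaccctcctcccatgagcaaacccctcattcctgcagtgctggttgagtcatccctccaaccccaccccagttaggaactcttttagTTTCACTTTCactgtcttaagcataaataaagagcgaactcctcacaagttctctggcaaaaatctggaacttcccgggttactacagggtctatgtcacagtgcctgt

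The *Gbp5* window held GAS matches at −245 and −52 bases from the start, TTCTGGGAA and TTCTCAGAA, and an ISRE match at −165. In the *Gbp7* window the GAS matches TTCCAGGAA and TTCTCAGAA began at −106 and −87, with an ISRE match at −53. The *Gbp3* window held no GAS match and 2 ISRE matches, at −45 and −39, which overlap in the run TTTCAGTTTCTATTTC. The *Gbp2* window had an ISRE match at −59 and no GAS match. A second start listed for *Gbp3*, with its window at chr3:142560106-142560405, held neither motif. Among all 32851 promoter windows of the same length, 3.44% held an ISRE match and 8.30% a GAS match.

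Total counts lay between 18758863 and 35393069 per library, and levels are given as CPM, a count divided by the library total after TMM scaling. *Sirt6* itself, the check of the genotype labels, had 198 to 358 CPM in male SIRT6-tg and 1.69 to 3.24 CPM in male WT livers. In females it had 16.4 to 50.2 CPM in SIRT6-tg and 1.80 to 6.22 CPM in WT livers, so the transgenic groups of both sexes lay above their controls without overlap, and the male SIRT6-tg mice had 9.31 times the *Sirt6* transcript of the female ones. Over all 21583 genes, 4467 passed an adjusted p of 0.05 in males (2090 higher, 9.68% of genes, and 2377 lower in SIRT6-tg, 11.0% of genes) and 6 in females by edgeR's quasi-likelihood test with Benjamini-Hochberg adjustment. Scaling by library size alone moved the median log2 difference of all genes in males from 0.06 to −0.22 and the split to 210 higher and 4084 lower. Hepatocyte markers summed to 101079 CPM or more in every library. Any part of the higher transgene level of males in the results below was not tested.

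The 4 chromosome 3 members were lower in every male SIRT6-tg liver than in any male WT liver. *Gbp2* encodes a prenylated protein that coats parasite vacuoles and takes part in their lysis. Its lowest, median and highest levels were 22.5, 40.1 and 80.7 CPM in male WT livers and 4.43, 5.58 and 6.93 CPM in male SIRT6-tg livers. Female WT livers had 16.7, 27.1 and 35.1 CPM of *Gbp2*, and female SIRT6-tg livers 12.1, 17.1 and 42.2 CPM. Every male SIRT6-tg library was below every library of the other 3 groups. The female groups overlapped, with 3 female SIRT6-tg libraries below every female WT library and 1 above all of them. The log2 difference between male SIRT6-tg and male WT was −3.08 ± 0.29 (SE, n = 7 and 7), a level 8.47-fold lower and the widest difference of the 10 members.

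*Gbp5*, whose product also carries a prenyl group and is known for promoting inflammasome assembly, was the member at the lowest level for its length. Male WT livers had 7.18, 8.93 and 17.4 CPM (lowest, median and highest) and male SIRT6-tg livers 0.902, 1.28 and 1.66 CPM, which rest on 17 to 48 raw counts per SIRT6-tg library. In female WT livers the *Gbp5* values were 2.58, 3.73 and 5.93 CPM, and in female SIRT6-tg livers 1.45, 3.62 and 6.57 CPM. The 7 male WT libraries were above all 21 others, and 1 female SIRT6-tg library reached down into the male SIRT6-tg range. The male log2 difference was −2.98 ± 0.27.

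For *Gbp3* the male WT values were 28.1, 41.1 and 66.3 CPM and the male SIRT6-tg values 7.09, 8.71 and 12.3 CPM. The female WT range of *Gbp3* ran from 22.0 to 49.8 CPM around a median of 32.4, and the female SIRT6-tg range from 24.1 to 77.6 CPM around 30.5. The highest *Gbp3* value of the whole study was thus in a female SIRT6-tg liver, and male SIRT6-tg was again the lowest group without overlap. The male log2 difference was −2.28 ± 0.24.

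*Gbp7*, known for bringing the NADPH oxidase to vacuoles that hold bacteria, had 52.8, 68.0 and 102 CPM in male WT, 16.5, 21.7 and 26.5 CPM in male SIRT6-tg, 36.4, 48.0 and 59.9 CPM in female WT and 31.2, 52.7 and 115 CPM in female SIRT6-tg livers. The male SIRT6-tg libraries lay below all others here too, by a smaller margin, with a male log2 difference of −1.69 ± 0.21, a level 3.23-fold lower. The annotated gene *Gm43802* shares 11.3% of the exon bases of *Gbp7*, and its own row was at 0 counts in all 28 libraries, so reads from the shared bases may not have been counted.

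**Figure D1:**
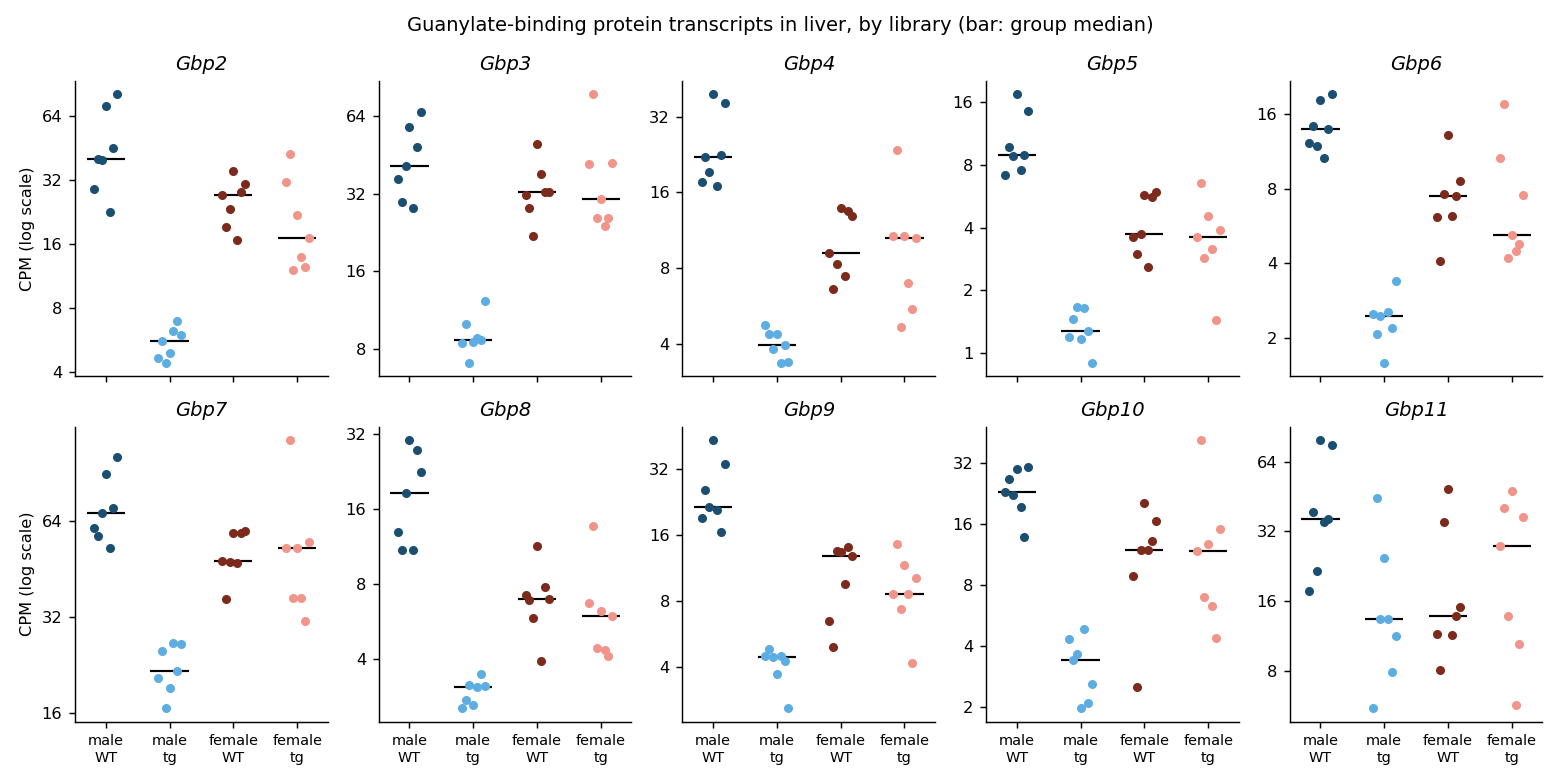
Level of each member (CPM, log scale, 1 panel a gene) in the 7 libraries of each group, with males left and females right in a panel, WT before SIRT6-tg, and a bar at the group median. In every panel but that of *Gbp11* the male SIRT6-tg points sit below all male WT points, while the female groups overlap in all 10.

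Of the chromosome 5 members, 5 of 6 had the same order of groups in males. *Gbp4* ranged from 17.02 to 39.2 CPM in male WT livers around a median of 22.1, against 3.37 to 4.77 CPM around 3.96 in male SIRT6-tg livers. In females *Gbp4* was at 6.64, 9.20 and 13.8 CPM in WT and 4.66, 10.6 and 23.5 CPM in SIRT6-tg livers. The male WT libraries were above all female WT libraries, and 1 female SIRT6-tg library fell within the male SIRT6-tg range. The male log2 difference of *Gbp4* was −2.63 ± 0.28.

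*Gbp9* behaved likewise, with 16.6, 21.4 and 43.2 CPM in male WT and 2.60, 4.46 and 4.83 CPM in male SIRT6-tg livers. Female values of *Gbp9* were 4.95, 12.8 and 14.1 CPM in WT and 4.20, 8.65 and 14.6 CPM in SIRT6-tg livers. All male WT libraries again exceeded all female WT libraries. *Gbp8* had 10.9, 18.6 and 30.2 CPM in male WT, 2.55, 3.11 and 3.51 CPM in male SIRT6-tg, 3.95, 6.99 and 11.4 CPM in female WT and 4.15, 6.00 and 13.6 CPM in female SIRT6-tg livers. Both genes had every male SIRT6-tg library below every male WT library, with male log2 differences of −2.64 ± 0.26 for *Gbp9* and −2.68 ± 0.27 for *Gbp8*.

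*Gbp6* and *Gbp10* are close copies, and both are known for limiting bacteria within macrophages. *Gbp6* had 10.6, 13.9 and 19.1 CPM in male WT and 1.59, 2.45 and 3.39 CPM in male SIRT6-tg livers, and *Gbp10* 13.8, 22.998 and 30.5 CPM against 1.98, 3.41 and 4.87 CPM. In females *Gbp6* was at 4.07, 7.47 and 13.1 CPM in WT and 4.21, 5.21 and 17.6 CPM in SIRT6-tg livers. *Gbp10* was at 2.53, 11.9 and 20.2 CPM in female WT and 4.39, 11.8 and 41.5 CPM in female SIRT6-tg livers. Neither gene overlapped between the male groups, and the male log2 differences were −2.59 ± 0.29 and −2.84 ± 0.42. Their counts are less certain than the others, because 70.7% of the 50-base stretches of *Gbp6* transcripts and 84.1% of those of *Gbp10* also occur in transcripts of another gene. The gene *Gm43302* shares 29.0% of the exon bases of *Gbp6* and 46.3% of those of *Gbp10* and was at 0 counts in all 28 libraries.

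*Gbp11* was the member whose male groups overlapped. Male WT livers had 17.7, 36.1 and 79.3 CPM, male SIRT6-tg livers 5.51, 13.3 and 44.8 CPM, female WT livers 8.06, 13.8 and 48.9 CPM and female SIRT6-tg livers 5.71, 27.6 and 47.8 CPM. All 4 groups overlapped, although 5 of 7 male SIRT6-tg libraries were below the lowest male WT library. In male SIRT6-tg livers its coefficient of variation was 78.6%, against 11.5% to 33.8% for the other 9 members. It was 56.3% to 78.6% over the 4 groups, and in female SIRT6-tg livers *Gbp11* at 62.8% did not exceed *Gbp6* at 62.8% or *Gbp10* at 89.6%. Its male log2 difference of −1.33 ± 0.51 was the smallest of the 10.

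Over the male groups, 9 of the 10 members had every SIRT6-tg library below every WT library, where 4.37% of all tested genes did, and since this comparison chose the family nothing is read from this count. The median log2 difference of the members was −2.63, that of all tested genes 0.06. With scaling by library size alone the median of the members was −2.92. Leaving out any 1 library left the median between −2.72 and −2.54.

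No member was called between the female groups. By edgeR's quasi-likelihood test 0 of the 10 members passed, against 0.0278% of all tested genes, and 0 members had an unadjusted p under 0.05, against 5.62% of all genes. DESeq2 gave the same 2 counts of 0. The log2 differences of female SIRT6-tg from female WT were above 0 for 6 members and below 0 for 4, with a median of 0.03 beside 0.0026 over all genes. *Gbp2* had −0.25 ± 0.27 (95% interval −0.78 to 0.27) and the lowest unadjusted p of the family, 0.35, with an adjusted p of 0.9998 in edgeR. *Gbp5* had −0.20 ± 0.24 (−0.67 to 0.28), *Gbp3* 0.19 ± 0.23 (−0.25 to 0.63) and *Gbp7* 0.09 ± 0.21 (−0.31 to 0.50).

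The chromosome 5 members spanned a similar range in females. Their log2 differences ran from −0.19 ± 0.24 for *Gbp9* to 0.35 ± 0.50 for *Gbp11*, with *Gbp4* at 0.03 ± 0.27, *Gbp6* at 0.04 ± 0.26, *Gbp8* at −0.13 ± 0.25 and *Gbp10* at 0.22 ± 0.39. The widest 95% interval was that of *Gbp11*, −0.64 to 1.33, and the lowest bound of any member was the −0.78 of *Gbp2*. Differences within these intervals are not excluded with 7 mice a group, and the intervals do not give the smallest difference that the test would call.

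**Figure D2:**
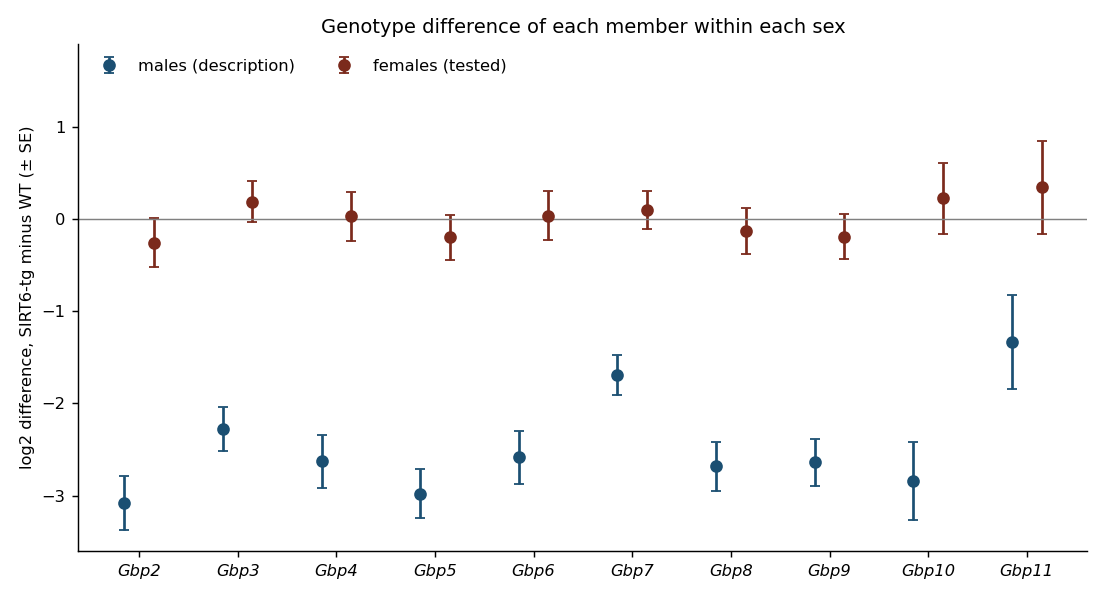
Log2 difference of SIRT6-tg from WT for each member within males (blue, a description) and within females (red, tested), with bars of 1 SE from the fit over 28 libraries. The male values run from −3.08 to −1.33 and the female values from −0.25 to 0.35.

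A single mouse set the sign of several female values. Female SIRT6-tg replicate 2 was above its group mean for all 10 members, by 1.19 log2 units on average, and held the highest value of its group for every member but *Gbp11*, for which it was the second highest. Without it, 9 of the 10 members were below 0, the exception being *Gbp11* at 0.21, and the median was −0.33. No member passed without this mouse either, and the lowest adjusted p was 0.80 for *Gbp2*. The summed markers of T and NK cells were at 7.75 CPM in this liver, the sixth highest of 7 in its group, and those of Kupffer cells and macrophages at 509 CPM, the fifth highest. Its summed dendritic cell markers, at 16.2 CPM, were the highest of the group, and those of B cells and neutrophils, at 4.31 and 7.21 CPM, were the sixth and the fourth highest. Sinusoidal endothelial and stellate cell markers, at 133 and 284 CPM, were the lowest of the 7. Those of hepatocytes, at 131590 CPM, were the sixth highest, and those of cholangiocytes, at 7.59 CPM, the fourth highest. The part of these cell types in its *Gbp* levels was not tested.

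The genotype difference was more negative in males for every member. The male difference minus the female difference lay between −3.07 and −1.68 on the log2 scale with a median of −2.59, and was −2.83 ± 0.39 for *Gbp2*, −2.79 ± 0.36 for *Gbp5* and −2.47 ± 0.33 for *Gbp3*. Because the male mice chose the family, this is a description.

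Levels in WT mice differed by sex in the opposite direction from those in SIRT6-tg mice. All 10 members had a higher fitted level in male WT than in female WT livers, by 0.40 for *Gbp3* to 1.42 for *Gbp8* on the log2 scale and with a median of 1.02. *Gbp4*, *Gbp5* and *Gbp9*, 3 of the 10, had every male WT library above every female WT library, where 1.33% of all tested genes did. Among SIRT6-tg mice all 10 members had a lower fitted level in males, by −2.11 for *Gbp10* to −0.60 for *Gbp11*, with a median of −1.43. There *Gbp2*, *Gbp3*, *Gbp6*, *Gbp7* and *Gbp8*, 5 of the 10, had every male library below every female library, where 2.56% of all tested genes did. These comparisons share their libraries with the genotype comparisons, so the 4 sets of values are not independent. Because the male libraries chose the family, nothing is read from these counts.

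Ordered by level per kilobase of exon, the family had an upper and a lower block in every group, with a gap that depended on the length used. In male WT livers *Gbp2* had 18.6 ± 8.51 CPM per kb (mean ± SD, n = 7), *Gbp11* 16.1 ± 9.07, *Gbp3* 13.501 ± 4.39 and *Gbp7* 12.8 ± 3.22 CPM per kb. These 4 neighbours in the order did not differ beyond their spread. *Gbp7* was above the next member, *Gbp10* at 6.11 ± 1.54 CPM per kb, in 7 of 7 male WT mice, by 1.07 ± 0.38 log2 units. *Gbp10*, *Gbp8* at 5.55 ± 2.30 and *Gbp9* at 4.98 ± 1.83 CPM per kb again did not differ from their neighbours. *Gbp9* exceeded *Gbp4*, *Gbp4* exceeded *Gbp6* and *Gbp6* exceeded *Gbp5* in all 7 mice, and *Gbp5* closed the order at 1.59 ± 0.58 CPM per kb. With exon bases shared with other genes left out, *Gbp10* came to 11.4 CPM per kb, close to *Gbp3* at 13.501, and the gap below the upper block narrowed. With the longest transcript as length the order of *Gbp4* and *Gbp9* turned, at 5.48 and 5.11 CPM per kb.

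The order of the upper block changed with the group. In male SIRT6-tg livers *Gbp11* led at 6.41 ± 5.04 CPM per kb, ahead of *Gbp7* at 3.96 ± 0.68, *Gbp3* at 2.79 ± 0.50 and *Gbp2* at 2.201 ± 0.37 CPM per kb. *Gbp7* was above *Gbp3* in 7 of 7 of these mice, whereas *Gbp11* was above *Gbp7* in 4 of 7 only. In female WT livers *Gbp3* and *Gbp2* were close, at 10.26 ± 2.66 and 10.2 ± 2.55 CPM per kb, and in female SIRT6-tg livers *Gbp3* led at 11.7 ± 5.80 CPM per kb. *Gbp5* was the lowest member in all 4 groups, at 0.20 ± 0.04 CPM per kb in male SIRT6-tg livers.

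**Figure D3:**
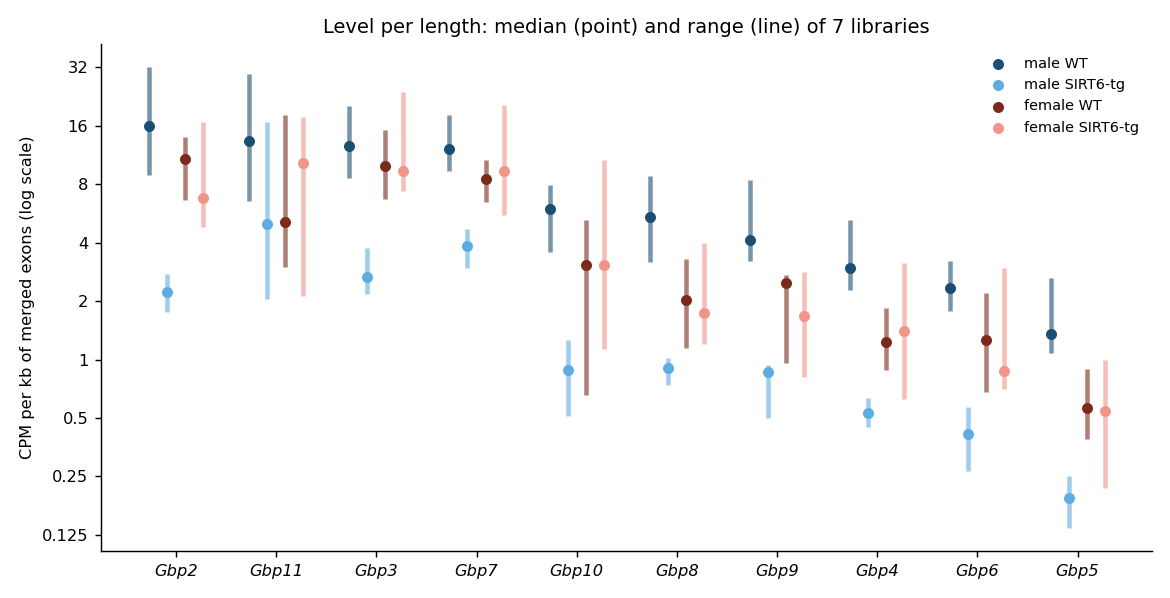
Level of each member per kilobase of merged exons (CPM per kb, log scale), with the median as a point and the range of 7 libraries as a line for each of the 4 groups, ordered by the male WT mean. *Gbp2*, *Gbp11*, *Gbp3* and *Gbp7* form the upper block by this length, and *Gbp5* is the lowest in every group.

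Summed over the 10 members, the level was 85.0 ± 30.7 CPM per kb in male WT, 19.01 ± 5.35 in male SIRT6-tg, 47.8 ± 13.4 in female WT and 50.2 ± 25.9 CPM per kb in female SIRT6-tg livers. *Gbp2* made up 21.3% ± 2.97 of this sum in male WT and 12.1% ± 3.21 in male SIRT6-tg livers. The share of *Gbp11* was 18.1% ± 5.11 in male WT and 30.6% ± 14.7 in male SIRT6-tg livers, and that of *Gbp7* 15.6% ± 2.02 and 21.6% ± 4.65. On average the low male SIRT6-tg sum was therefore made up more of *Gbp11* and *Gbp7* than the male WT sum was. The ranges overlapped, at 11.1% to 23.1% in male WT and 14.5% to 55.2% in male SIRT6-tg livers for *Gbp11*. For *Gbp7* they were 12.6% to 18.4% and 14.8% to 25.9%.

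Within groups the members varied together from mouse to mouse. Each log2 CPM was set against its group mean, and these deviations were correlated over 28 libraries, as a description. The 36 pairs that leave out *Gbp11* had Pearson's r from 0.39 to 0.87 with a median of 0.76, the highest being *Gbp3* with *Gbp7* and the lowest *Gbp3* with *Gbp9*. The 9 pairs with *Gbp11* had 0.47 to 0.60 and a median of 0.56. The pairs share libraries and depth, and near copies among them can share reads.

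In 8 mice the members lay all on one side of their group means. Male WT replicates 4 and 7, female WT replicate 4 and female SIRT6-tg replicate 2 were above their group mean for all 10 members, and male WT replicate 5 and female SIRT6-tg replicates 3, 5 and 6 for 0 of the 10. The male SIRT6-tg livers were the most alike, with mean deviations of −0.11 to 0.24 log2 units, against −0.80 to 1.19 in female SIRT6-tg livers.

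**Figure D4:**
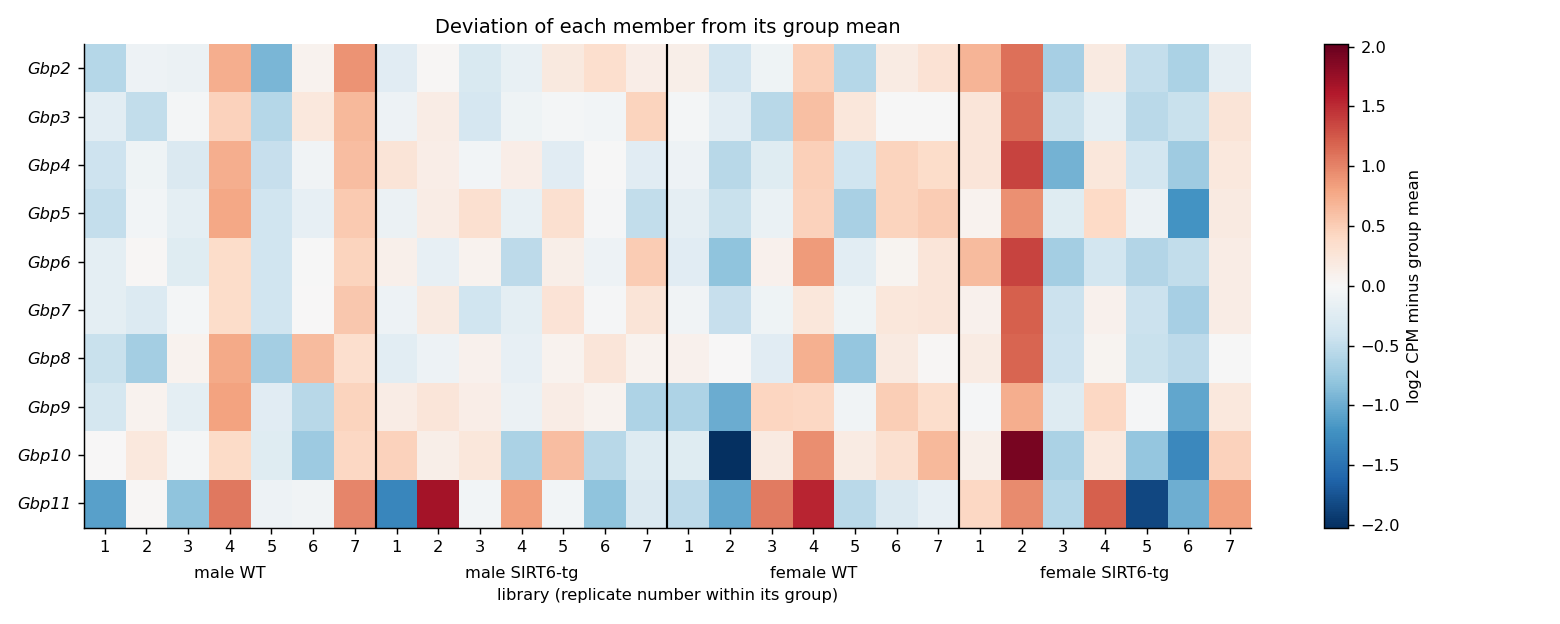
Deviation of each member (rows) from its group mean in each of the 28 libraries (columns, by group and replicate number), in log2 CPM, with red above and blue below the mean. Columns of 1 colour, such as female SIRT6-tg replicate 2 at 1.19 on average, are mice in which the members moved together, and the *Gbp11* row departs most from the others.

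The 5 genes outside the family whose deviations were most like the mean of the members, of 21573 genes over 28 libraries, were *Samhd1* (r = 0.90, Spearman's rho = 0.92), *Cd274* (0.89, 0.86), *Ciita* (0.89, 0.90), *Gm12250* (0.89, 0.83) and *Igtp* (0.89, 0.82). *Samhd1* encodes a nucleotide-hydrolysing antiviral enzyme, *Cd274* the checkpoint ligand PD-L1, *Ciita* the master activator of MHC class II genes, and *Gm12250* and *Igtp* immunity-related GTPases. *Samhd1* had 44.6 to 86.4 CPM in male WT and 19.8 to 23.8 CPM in male SIRT6-tg livers, and 30.1 to 45.8 and 25.8 to 52.7 CPM in the female groups. *Cd274* had 7.71 to 24.5 CPM in male WT and 1.65 to 2.91 CPM in male SIRT6-tg livers. In females the log2 differences of these 5 genes lay between −0.38 and 0.30.

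Several genes of the pathway that induces the family were lower in male SIRT6-tg livers and were not called in females. Of 17 genes of interferon-gamma signalling, 10 fell in males, where 11.0% of all tested genes did, and 0 rose. In females 0 were called by edgeR or DESeq2. By edgeR 2 had an unadjusted p under 0.05 there, against 5.62% of all tested genes. These 2, *Irf8* and *Socs3*, were each lower in female SIRT6-tg livers. The list's median log2 difference in males was −0.56 beside 0.06 over all genes. Among the 10 were *Irf1*, *Irf8*, *Batf2*, *Socs1*, *Nlrc5* and *Ciita*, which lie downstream of the receptor. *Ifng*, the cytokine itself, had 0.18 to 1.81 CPM in male WT and 0.037 to 0.17 CPM in male SIRT6-tg livers, a log2 difference of −2.82 ± 0.50 (edgeR adjusted p = 0.00010). The male SIRT6-tg values and the lowest male WT value rest on few reads, near the floor, so the size of this difference is uncertain. Of its receptor chains, *Ifngr1* fell by 0.44 (adjusted p = 0.0049), and *Ifngr2* had −0.26 and an adjusted p of 0.14 in edgeR. The kinases *Jak1* and *Jak2* had −0.06 and −0.29, with adjusted p of 0.67 and 0.091.

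Transcription factors downstream gave mixed values. *Irf1* had 74.7 to 127 CPM in male WT and 26.01 to 57.3 CPM in male SIRT6-tg livers, without overlap, and fell by 1.28 on the log2 scale (edgeR adjusted p = 1.62e-06). In females *Irf1* had −0.05 ± 0.17, and the female groups overlapped. *Irf8*, a myeloid regulator, fell by 1.74 in males, and the feedback inhibitor *Socs1* fell by 2.62, while *Irf2*, a repressor of interferon targets, had 0.11 and an adjusted p of 0.58 in edgeR, with the opposite sign under scaling by library size alone.

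A list of 13 genes around the drive to interferon-gamma held cytokines, receptor chains, transcription factors and the chemokines *Cxcl9* and *Cxcl10*. Of these 13, 9 fell in males, where 11.0% of all tested genes did, with a median log2 difference of −1.57. In females 0 were called by edgeR or DESeq2. By edgeR 3 had an unadjusted p under 0.05 there, against 5.62% of all tested genes. These 3, *Il12b*, *Tbx21* and *Cxcl10*, were all lower in female SIRT6-tg livers, and the median of the list in females was −0.44. Of the cytokines, *Il12b* and *Il27* fell from at most 0.63 and 0.77 CPM in male WT livers. *Il12a* had −1.67 and *Il18* 0.08, with adjusted p of 0.13 and 0.76 in edgeR. *Gbp2b*, a further member of the chromosome 3 cluster whose product is prenylated, had 9.16 to 29.2 CPM in male WT and 2.80 to 5.03 CPM in male SIRT6-tg livers. Its log2 difference was −2.35 ± 0.35 in males and −0.29 ± 0.33 in females. Because *Gbp2b* belongs to the family that the male mice chose, its male value is a description. The row of the pseudogene *Gbp2-ps* was at 0 counts in all 28 libraries.

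Related GTPases gave different counts. Of 8 tested immunity-related GTPases, which act on the same vacuoles as the guanylate-binding proteins, 7 fell in males, with *Irgm1* at −1.57 and *Igtp* at −2.73. Over all tested genes 11.0% fell in males. The median of the 8 in males was −2.18. In females 0 of the 8 were called by edgeR or DESeq2 or had an unadjusted p under 0.05, and the median was 0.22. High values in female SIRT6-tg livers enter that median. *Igtp* had a median of 80.7 and a highest value of 293 CPM there, and *Tgtp1* 3.02 and 41.4 CPM. Their female WT medians were higher, at 92.4 and 7.07 CPM, although their fitted differences were 0.30 and 0.24. *Irgm2* had the higher median in SIRT6-tg livers, 119 against 97.7 CPM. Among 3 tested large interferon-inducible GTPases 2 fell in males, and in females 0 were called or had an unadjusted p under 0.05 in edgeR or DESeq2. The 3 atlastins, membrane-fusing relatives in the same superfamily with no known induction by interferon, had 0 calls in males, log2 differences of −0.13 to 0.27, and 1 unadjusted p under 0.05 in edgeR and in DESeq2.

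The difference between the sexes was tested for these genes, which did not choose the family, although their lists were made with earlier results known. By edgeR's interaction test the male difference was the more negative for 6 of 17 interferon-gamma signalling genes and 7 of 8 immunity-related GTPases, where 3.84% of all tested genes passed in that direction. Under scaling by library size alone the first count was 10.

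Machinery around the proteins went in different directions. Of 9 genes of the ATG conjugation system, which places guanylate-binding proteins on vacuoles, 4 rose in male SIRT6-tg livers, where 9.68% of all tested genes did, among them *Atg5* by 0.38, *Atg7* by 0.29 and *Atg16l1* by 0.29 on the log2 scale. Under scaling by library size alone 1 of the 9 rose, and with each sex fitted separately 2. Of 8 inflammasome partners 7 fell in males, where 11.0% of all tested genes did, including *Casp1* (−1.22), *Casp4* (−1.37), *Aim2* (−1.44) and *Nlrp3* (−1.36), whereas the pore-forming *Gsdmd* had −0.11 and an adjusted p of 0.54 in edgeR. Of 13 genes of the type I interferon response 9 fell in males, where 11.0% of all tested genes did, and the median of the list was −0.91. *Isg15*, not among the 9, had −0.57 and an adjusted p of 0.17 in edgeR. Of 5 prenylation enzymes 1 rose in males, *Fnta* by 0.34 (named after its value was seen), and 0 did under scaling by library size alone, so with 5 genes this count is not set apart from the 9.68% over all genes. In females edgeR and DESeq2 each gave 0 calls for these lists, with 1 unadjusted p under 0.05 among the inflammasome partners in both and 1 among the ATG genes in DESeq2.

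**Figure D5:**
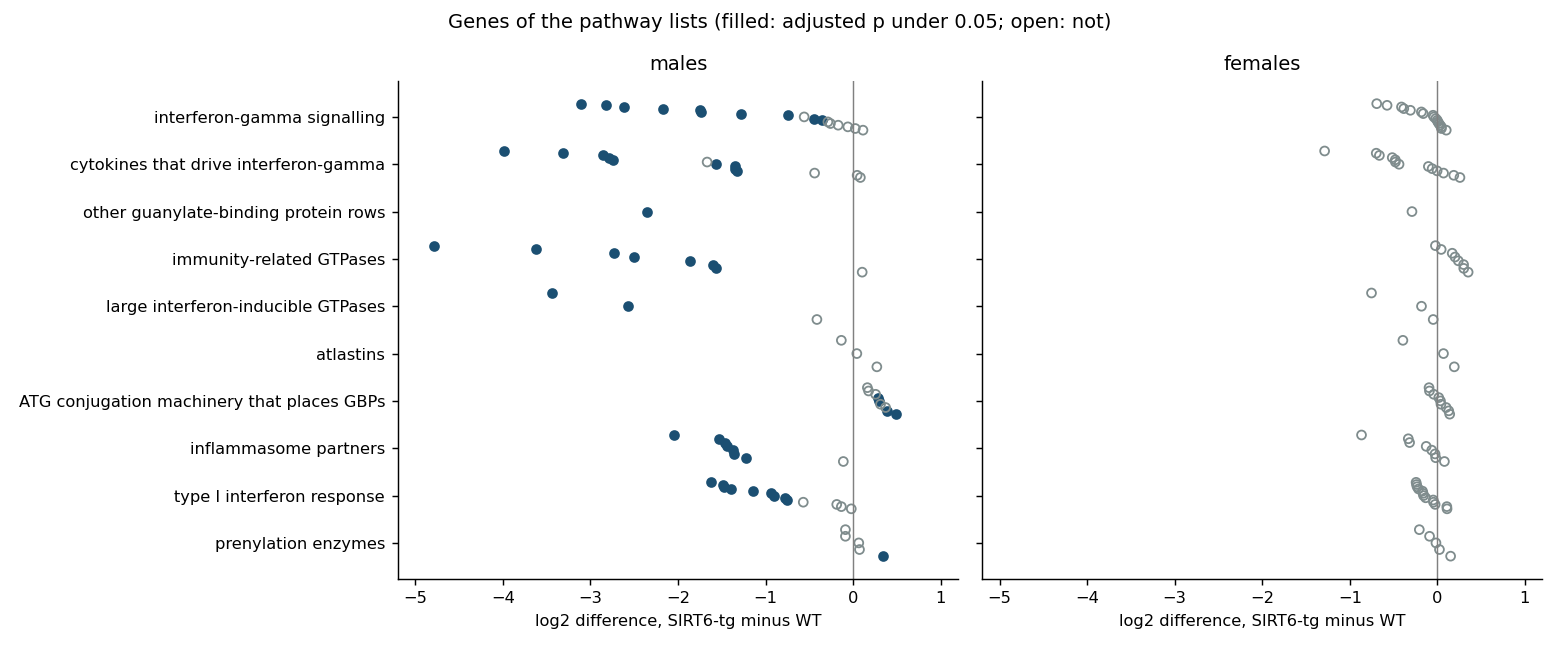
Log2 difference of SIRT6-tg from WT for each gene of the pathway lists in males (left) and females (right), with filled points for an adjusted p under 0.05 and open points for others, spread vertically only to be visible. Filled points lie left of 0 for the interferon lists in males, and no point is filled in females.

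Markers of immune cells moved with the members in males. Of the markers of T and NK cells 8 of 10 fell in males, of Kupffer cells and macrophages 9 of 9, of dendritic cells 4 of 6 and of B cells 3 of 4. Over all tested genes 11.0% fell. Not called were the NK cell receptor genes *Ncr1* (log2 difference −0.45) and *Klrb1c* (−0.52), so the first count does not speak for NK cells. The dendritic cell markers *Zbtb46* (0.004) and *Siglech* (−0.62) and the B cell marker *Cd79b* (−0.54) were not called either. The summed T and NK cell markers ran from 16.2 to 57.3 CPM in male WT, 5.12 to 7.74 in male SIRT6-tg, 6.09 to 21.4 in female WT and 7.12 to 14.4 CPM in female SIRT6-tg livers. Those of Kupffer cells and macrophages ran from 441 to 1437 CPM in male WT and from 374 to 634 CPM in male SIRT6-tg livers, with 504 to 1054 and 397 to 979 CPM in the female groups. In females edgeR and DESeq2 gave 0 calls for T and NK cell markers. By edgeR 4 of 10 had an unadjusted p under 0.05 there, against 5.62% of all tested genes. All 4 were lower in female SIRT6-tg livers: *Cd3d* (−0.71), *Cd3g* (−0.59), *Cd8a* (−0.92) and *Trac* (−0.77). The median of this list in females was −0.56. The part of these cells in the low *Gbp* levels was not tested. In bulk liver, fewer cells of a type and less RNA per cell cannot be told apart.

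Markers of other cell types gave mixed counts. Stellate cell markers fell in males for 4 of 5 and endothelial ones for 1 of 6, where 11.0% of all tested genes did. Neutrophil markers fell for 1 of the 4 tested, and *Ly6g*, a defining one, was too low in the whole study to pass the filter and was at 0 in all male SIRT6-tg libraries. Cholangiocyte markers had 0 of 4 calls, and 2 of 8 hepatocyte markers rose in males, where 9.68% of all tested genes did. With so few genes the endothelial, neutrophil and hepatocyte counts are not set apart from these shares. Under scaling by library size alone 0 hepatocyte markers rose. In females 0 markers of these lists were called by edgeR or DESeq2, with 1 unadjusted p under 0.05 each for endothelial, cholangiocyte and hepatocyte markers.

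The nearest tested genes outside the clusters did not follow the members as a group. Of the 10 tested protein-coding genes nearest to the chromosome 3 cluster, 5 on each side, 0 were called in either sex, and their median log2 difference in males was 0.09. They lie 63.0 to 4004 kb from it, 4 of them within 153 kb. *Kyat3*, an aminotransferase gene 63.0 kb beyond *Gbp2*, had 0.17 ± 0.16. Around the chromosome 5 cluster 3 of 10 fell in males, namely the transporter gene *Abcg3* by 0.87 (edgeR adjusted p = 0.00024) and the channel subunit genes *Lrrc8b* by 0.70 (adjusted p = 0.0052) and *Lrrc8c* by 0.75 (adjusted p = 0.0015). They lie 31.4, 69.3 and 173 kb from the cluster, and 0 of the 20 neighbours were called in females. Under scaling by library size alone 6 of the 20 were called in males. Over both clusters the 3 of 20 that fell are close to the 11.0% of all tested genes that did. All 3 are among the 10 around chromosome 5, whose median log2 difference in males was 0.04. They include the nearest tested neighbour on each side of that cluster, *Abcg3* and *Lrrc8b*.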

How the data were processed

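Livers of 28 mice were measured by RNA-seq, in 4 groups of 7. The authors sequenced single-end reads of an unstranded library kit, aligned them to mm10 with STAR 2.5.0a and counted uniquely mapped reads on Gencode genes with HTSeq. They deposited raw counts, 1 column per library, with no normalization, and 0 columns were left unmapped. Whether the counting used strand is not given in the sources used here. Overlapping genes can therefore lose or share counts. The order of the libraries in the file runs group by group, so any processing order and group cannot be told apart. Each library was taken as 1 mouse.

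Symbols and positions came from a Gencode annotation of the same build, with 43749 of 49585 identifiers the same. Genes with a mean of 0.5 or more counts after size factors were kept. Counts were scaled by TMM and fitted with edgeR 4.0.16 (quasi-likelihood, robust, limma 3.58.1, R 4.3.3), all 28 libraries in 1 fit without covariates, with Benjamini-Hochberg adjustment over 21583 genes. The authors used DESeq2, and here DESeq2 1.42.0 was an alternative. Intervals are 95% intervals from the SE. Log2 CPM had a prior count of 2. Levels between genes were compared per kilobase of merged exons, and neighbours in the order were said to differ when the mean log2 difference within mice exceeded its SD. Alternatives were other scalings and filters, a replicate block, each sex fitted separately, other lengths, and leaving out each library. The comparison of SIRT6-tg males with SIRT6-tg females and the length without shared exon bases were added after seeing the data. The fits were tested on simulated data.

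Members and lists were chosen with earlier results of these data known. Named with values were all members, *Sirt6*, a set of anchor genes taken from the pathway lists, the 5 most alike genes, and the called or nearest neighbours of the clusters. Some cytokine and marker genes were named after their values were seen. 1 anchor gene is not reported here.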

Additional observations from a re-analysis of the deposited data

Results flagged for a closer look

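A library far from its group by Dixon's test on log2 CPM appeared in 3 of 40 combinations of member and group, and chance gives about 1 in 20. *Gbp8* was at 13.6 CPM in female SIRT6-tg replicate 2, where the next mouse had 6.74 CPM. *Gbp9* was at 2.60 CPM in male SIRT6-tg replicate 7, below the next at 3.73 CPM. *Gbp10* was at 2.53 CPM in female WT replicate 2, below the next at 8.87 CPM, and it is the member that shares the most sequence with another gene.

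Of the 21 anchor genes of the pathway lists, 10 had a genotype difference that itself differed between the sexes by edgeR's interaction test. All 10 had the more negative difference in males, where 3.84% of all tested genes passed in that direction. The anchor genes come from lists made with earlier results of these data known, and *Gbp2b* lies in the members' own cluster. The count is therefore no independent support. The male minus female log2 differences were −1.23 for *Irf1*, −1.33 for *Irf8*, −2.31 for *Socs1* and −2.06 for *Gbp2b*. They were −1.77 for *Irgm1* and −3.03 for *Igtp* among the immunity-related GTPases, and −1.09 for *Casp1*, −1.04 for *Casp4*, −1.37 for *Aim2* and −1.34 for *Nlrp3* among the inflammasome partners. Adjusted p ran from 0.00025 for *Igtp* to 0.046 for *Nlrp3*. For *Ifng* the difference of −2.13 ± 0.77 did not pass (edgeR adjusted p = 0.11).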

How the results depend on the processing

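Of 3096 alternative values, 2974 kept their direction and side of the threshold or moved within the limits set, 54 moved, 39 became weaker, 12 stronger and 17 reversed. None of the 220 alternative values of the members in females passed, and the lowest adjusted p was 0.80. The cause of the changes below was not tested.

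Genes called in females numbered 6, against 44 with DESeq2, 2 with each sex fitted separately and 3 to 16 without 1 library (16 without female SIRT6-tg replicate 2). For interferon-gamma signalling in females the count was 0 to 1 without 1 library, with 1 without that mouse, and for atlastins in males 0 to 1. The ATG count in males was 2 with each sex fitted separately and 1 with library size alone, and the prenylation count 0 with library size alone and with upper-quartile scaling. Library size alone also gave 1863 genes for the sex difference in place of 1089, with 10 of interferon-gamma signalling, 4212 in place of 2669 for male WT against female WT, 6 called neighbours in place of 3, and −0.16 for *Irf2* in males.

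Male WT levels per kb became 5.48 for *Gbp4*, 2.82 for *Gbp5* and 3.37 for *Gbp6* with the longest transcript as length, and 3.39 for *Gbp6* and 11.4 for *Gbp10* without shared exon bases.

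Replicate numbers are shared between groups, but same-numbered libraries did not deviate together (r −0.28 to 0.27 over 14 pairs, and 1 library correlated best with its own number). With the replicate block 0 members passed in females, and the female log2 differences of *Gbp4*, *Gbp6* and *Gbp10* were −0.053, −0.035 and −0.021. Without 1 library the female log2 difference ran from −0.083 to 0.31 for *Gbp3*, −0.32 to 0.16 for *Gbp4*, −0.31 to 0.22 for *Gbp6*, −0.20 to 0.19 for *Gbp7*, −0.42 to 0.017 for *Gbp8* and −0.34 to 0.39 for *Gbp10*, the lowest in each case without female SIRT6-tg replicate 2.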
